A study of Arabidopsis thaliana with 15 samples.

Results

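The comparison described here asks how the contrast between drying and abscisic acid (ABA), the stress hormone of drying plants, differs between 3 h and 1 h of treatment. RNA of whole Arabidopsis thaliana seedlings (Col-0, 14 days old) was measured in 5 conditions of 3 samples each. Dehydrated seedlings had been taken out of liquid medium and left on filter paper under light for 3 h or 1 h. ABA-treated seedlings had stayed in liquid medium with 20 µM ABA under light for 3 h or 1 h, and untreated seedlings were harvested before either treatment. All seedlings had been moved to liquid medium with sucrose the day before, so the treatments differ in hormone, in contact with the medium and in sugar supply. For each gene the log2 ratio of dehydration over ABA, called the gap, was formed at each time from read counts scaled to a common library size (CPM, reads per 1000000). The gap at 1 h was subtracted from the gap at 3 h, which equals log2(dehydration 3 h over 1 h) minus log2(ABA 3 h over 1 h). A positive difference thus means that the ratio moved towards dehydration with time, and a negative one that it moved towards ABA. Of 22526 genes in the table, 18846 had a mean of at least 1 CPM over the 4 treated columns and a difference that could be formed, and they are called measured.

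Plants answer water loss along at least a pair of routes. In the hormone route, ABA bound to receptors of the PYR/PYL family blocks clade A PP2C phosphatases, which frees SnRK2 kinases to activate ABF transcription factors at promoter motifs called ABA-responsive elements. The other route runs through CBF and DREB transcription factors at dehydration-responsive elements and can be set off without ABA. Drying tissue also makes its own ABA, through enzymes such as NCED3, so dehydration engages both routes while hormone added to the medium enters at the receptors.

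The deposited tables hold 1 column per condition in which the 3 samples are combined, so no value below has a replicate error, no test between conditions was possible, and genes are described by size. A gap, a change with time or a difference is counted from 2-fold on (1 on the log2 scale). Intervals in brackets are 95% counting intervals of the difference, which cover counting error only. The samples of a condition were also sequenced as 1 pool, so that condition and pool cannot be told apart. Column totals were at most 204315702 reads, after 3 h of ABA, and at least 163762670, after 1 h of ABA, and 3 reads, the floor used for a count under it, were worth 0.0155 to 0.0180 CPM. In whole seedlings fewer cells of a type and less RNA per cell cannot be told apart. Of 11 measured reference genes, 0 had a difference of 2-fold, and their differences ran between −0.34 and 0.52. The seed storage and oil body markers, 5 of which are in the table, all lay under the level to be measured.

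The gap differed at least 2-fold between the times in 1937 measured genes (10.3%). In 1105 of them (5.86%) the difference was positive and in 832 (4.41%) negative, and over all measured genes its median was −0.02, with the central 90% between −0.95 and 1.08. A difference of 4-fold was reached by 216 genes (1.15%) on the positive side and 130 (0.69%) on the negative side. The gap itself was at least 2-fold in 3018 genes (16%) at 3 h, 1735 higher after dehydration (9.21%) and 1283 lower (6.81%). At 1 h it was at least 2-fold in 1682 genes (8.92%), 1006 higher after dehydration (5.34%) and 676 lower (3.59%). These shares are the background for every count of list members given below.

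The 1937 genes fall into 6 classes by what happened to the gap. Most were genes whose gap opened, being at least 2-fold at 3 h but not at 1 h, with 1026 genes (5.44%): 567 opened towards dehydration (3.01%) and 459 towards ABA (2.44%). A gap already there at 1 h widened at least a further 2-fold in 159 genes higher after dehydration (0.844%) and in 107 genes higher after ABA (0.568%). Gaps closed to under 2-fold by 3 h in 188 genes. In 113 of these (0.6%) ABA had been ahead at 1 h, and in 75 (0.398%) dehydration had been ahead. A gap narrowed but stayed at least 2-fold in 39 genes (0.207%), 19 of them from an ABA lead (0.101%) and 20 from a dehydration lead (0.106%). It reversed, 2-fold one way at 3 h and 2-fold the other way at 1 h, in 18 genes (0.0955%). The remaining 400 genes (2.12%) differed by 2-fold with both gaps under 2-fold.

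**Figure D1:**
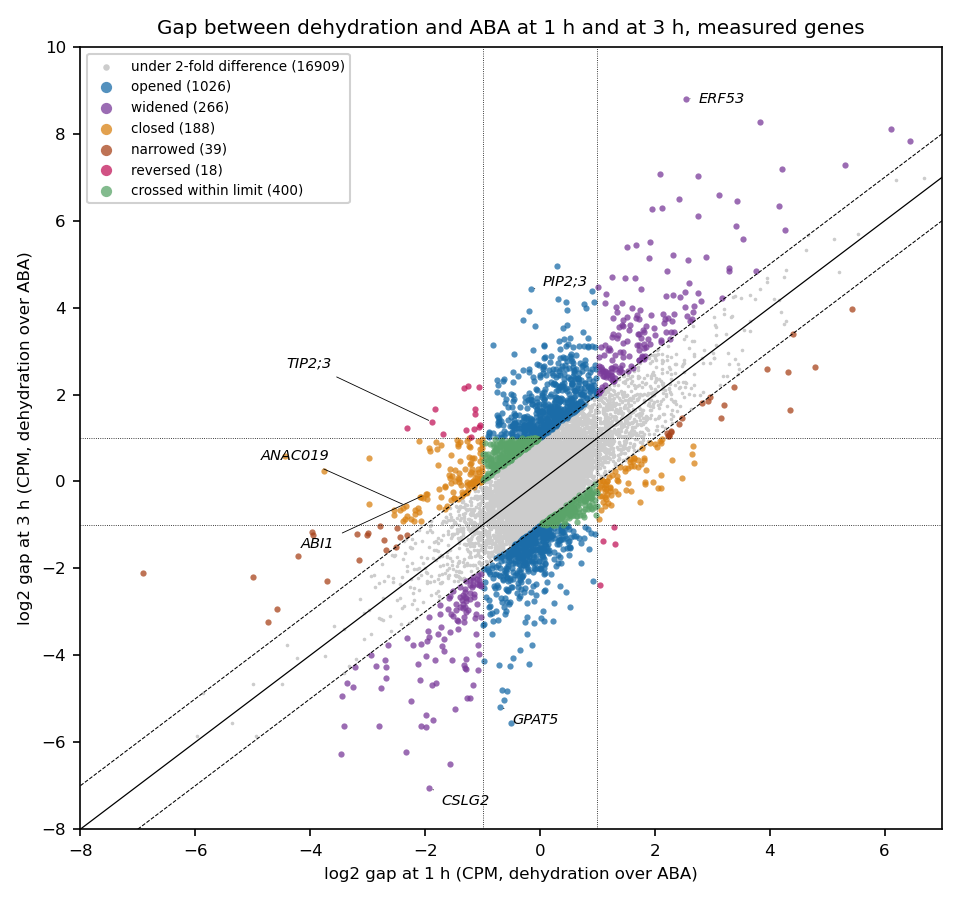
Gap between dehydration and ABA, as log2 ratio of CPM, at 3 h (y axis) and at 1 h (x axis), with 1 point per measured gene, coloured by class. The dashed lines mark a difference of 2-fold. ERF53 and PIP2;3 lie far above them and CSLG2 and GPAT5 far below, while 16909 grey points lie between the lines.

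Which treatment carried the difference was not the same on the 2 sides. Of the 1105 positive differences, 429 (38.8%) had a change with time of at least 2-fold in dehydration alone and 266 (24.1%) in ABA alone. Of the 832 negative differences, 384 (46.2%) had a change in ABA alone and 119 (14.3%) in dehydration alone. The direction of such a change is set by the sign of the difference and is no separate result. On the positive side dehydration is higher or ABA lower at 3 h, and on the negative side the reverse. Both treatments changed by 2-fold in opposite directions in 32 positive and 9 negative genes. In 317 positive and 291 negative genes neither arm reached 2-fold and the difference was the sum of smaller ones. Over all measured genes, 1285 differed 2-fold between 3 h and 1 h of dehydration (6.82%), 1034 higher at 3 h (5.49%) and 251 lower (1.33%). Between 3 h and 1 h of ABA 1379 did (7.32%), 936 higher at 3 h (4.97%) and 443 lower (2.35%).

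**Figure D2:**
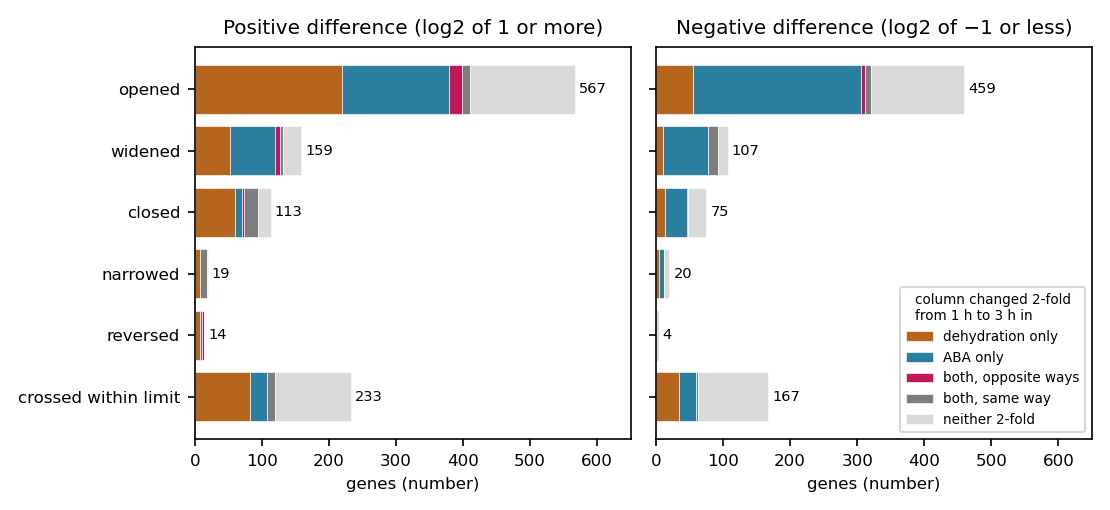
Number of measured genes in each class of gap (rows), for positive and negative differences in separate panels, with bars split by the treatment that changed 2-fold with time. Opened gaps form the longest bars, 567 towards dehydration and 459 towards ABA, with dehydration alone the most frequent arm among the positive ones (219) and ABA alone among the negative ones (250).

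The classes were also set beside untreated seedlings. After 3 h of dehydration 2007 of the measured genes (10.6%) lay 2-fold or more above untreated and 1188 (6.3%) below it, and after 3 h of ABA 1732 (9.19%) lay above and 1426 (7.57%) below. Of the 567 gaps that opened towards dehydration, 274 genes were at least 2-fold above untreated after 3 h of dehydration and 230 were at least 2-fold below it after 3 h of ABA. Of the 107 that widened towards ABA, 84 were above untreated after 3 h of ABA and 33 were below it after 3 h of dehydration. At 1 h, 1444 genes (7.66%) lay above untreated and 1054 (5.59%) below it after dehydration, and 864 (4.58%) above and 942 (5%) below after ABA. Among the 113 gaps that closed from an ABA lead, 62 were above untreated after 3 h of dehydration and 56 after 3 h of ABA, while at 1 h there were 21 after dehydration and 59 after ABA. Among the 75 that closed from a dehydration lead, 10 were below untreated after 1 h of dehydration and 36 after 1 h of ABA. All of these comparisons share the untreated column. The classes were formed from the same treated columns, so these counts partly follow from how the genes were chosen.

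Short promoter stretches are shown for genes of the main classes, because the shares of windows with the motifs of both routes differ between the classes. They were read from the window of 250 bases before to 50 after each gene's annotated start in the RefSeq genome TAIR10.1, run 5′ to 3′ on the gene's strand, and have the motif in capitals. The first set holds a dehydration-responsive type of motif, ACCGAC or GCCGAC on either strand, in genes whose gap opened or widened towards dehydration.
ERF53, chr2:8985753-8985782, plus strand: tagccgcggttaGCCGACcatactatcaac
GOLS3, chr1:3019411-3019440, plus strand: cataaatagtagGTCGGCcatgggtcggac
PIP2;5, chr3:20301623-20301652, plus strand: cattgtcaaagaGTCGGCtttgagcccatg
MYB12, chr2:19476116-19476145, plus strand: gaacctgcacggACCGACcacgagtctctc
The second set holds an ABA-responsive type, ACGTGGC or ACGTGTC on either strand, in genes whose gap closed or narrowed from an ABA lead.
ANAC019, chr1:19698589-19698618, minus strand: ctaactgacacACGTGTCagaattcaaaag
PP2CA, chr3:3585942-3585971, minus strand: caccaaacggtACGTGTCggatcctgcccg
RD26, chr4:13709252-13709281, minus strand: ccagttcatagACGTGGCagtatctaaatg
LEA7, chr1:19619496-19619525, plus strand: cgtgagtcaccACGTGTCtaacatcttccg
LEA4-5, chr5:2090465-2090494, minus strand: acgtctcactgACGTGTCgtcaagaacgta
The third set holds the same type in genes whose gap widened towards ABA.
CSLG2, chr4:12461880-12461909, plus strand: cttcacttcacACGTGTCttttggagaagt
MYB41, chr4:13969622-13969651, minus strand: tatttcaaaggACGTGGCatattaggtaca
The fourth set holds CGCGTT on either strand, a motif known from rapid responses to mechanical and other stress, in genes whose gap closed from a dehydration lead, and lies just after the start.
PUP18, chr1:21442987-21443016, minus strand: agtcattgtttgtttAACGCGcacttctcc
AT1G22570, chr1:7978771-7978800, minus strand: tacttattttttAACGCGtatagtacactc

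The dehydration-responsive type of motif stood in 9.93% of the windows of all measured genes (1867 of 18798 with a window). It stood in 16.3% of gaps that opened towards dehydration (92 of 564). In those that widened towards dehydration the share was 11.3% (18 of 159), near that of all windows. Towards ABA it stood in 6.55% of gaps that opened and in 5.61% of those that widened. It was also in 14.5% of the gaps that closed from an ABA lead (16 of 110) and in 21.1% of those that narrowed from one (4 of 19), and in 6.67% of those that closed from a dehydration lead. The ABA-responsive type stood in 9.17% of all windows. It was found in 21.8% of the gaps that closed from an ABA lead (24 of 110), in 36.8% of those that narrowed from one (7 of 19) and in 17.8% of those that widened towards ABA (19 of 107), against 5.66% of those that widened towards dehydration. It stood in 11% of the gaps that opened towards dehydration, in 8.08% of those that opened towards ABA and in 13.3% of those that closed from a dehydration lead, so neither type belongs to 1 direction. CACGTG, which can overlap the ABA-responsive type, stood in 9.05% of all windows, in 19.1% of the gaps closed from an ABA lead and in 42.1% of those narrowed from one. CGCGTT stood in 3.77% of all windows and in 13.3% of the gaps that closed from a dehydration lead (10 of 75). Some windows hold both types: those of LEA7, LEA4-5, RD26, GOLS3 and MYB12 have an ABA-responsive and a dehydration-responsive motif. AAAATATCT, GAANNTTC, TTGACC and TTGACT were also counted in every class. TTGACT stood in 22.1% of all windows and in 32% of the gaps that closed from a dehydration lead (24 of 75). GAANNTTC stood in 11.4% of all windows and in 42.9% of those that reversed towards dehydration (6 of 14). The motifs printed are thus a choice from a larger set, no share was tested, and some rest on few windows. A match describes the letters in the window and is not a measured binding site.

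Aquaporins, the channels that let water cross the plasma membrane (PIP) and the vacuolar membrane (TIP), were among the genes whose gap opened towards dehydration. Of 19 measured members, 11 had a positive difference of 2-fold and 0 a negative one, beside 5.86% and 4.41% of all measured genes. The list's median difference was 1.46, beside −0.02 over all measured genes. At 3 h the gap was 2-fold in 9 members higher after dehydration and in 1 lower, with a median gap of 0.82. At 1 h it was 2-fold in 2 members, both lower after dehydration, with a median gap of −0.44. PIP2;3 (AT2G37180), a plasma membrane channel, stood at 1131 CPM after 3 h of dehydration and 84.7 CPM after 1 h, against 52.8 CPM after 3 h of ABA, 94.9 CPM after 1 h and 98.5 CPM untreated. The 3 h dehydration column alone stands high, so that the gap opened with a difference of 4.59 (4.54 to 4.63). Its neighbour and close relative PIP2;2 (AT2G37170) had 1222 CPM at 3 h and 173 CPM at 1 h of dehydration, 160.5 CPM at 3 h and 237 CPM at 1 h of ABA, and 267 CPM in untreated seedlings, and its difference was 3.39. Reads of this pair can be confused in counting, so their separate values are uncertain.

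PIP2;1 (AT3G53420), a main water channel of the plasma membrane, had 3372 CPM after 3 h of dehydration and 709 CPM after 1 h, against 1347 CPM after 3 h of ABA, 1167 CPM after 1 h and 1331 CPM untreated. It lay above untreated at 3 h of dehydration and below it at 1 h, while both ABA columns stayed within 1.15-fold of each other. The vacuolar channel TIP1;1 (AT2G36830) had 1666 CPM after 3 h of dehydration and 369 CPM after 1 h, against 573 CPM after 3 h of ABA, 501 CPM after 1 h and 621 CPM untreated. It too was highest at 3 h and lowest at 1 h of dehydration, but both ABA columns lay below untreated, and its difference was 1.98 (1.96 to 2.0). PIP2;5 (AT3G54820), whose promoter stretch is printed above, had 72.0 CPM after 3 h of dehydration against 16.5 CPM after 3 h of ABA, and 8.80 CPM after 1 h of dehydration against 9.25 CPM after 1 h of ABA, with 7.69 CPM untreated, a gap of 4.36-fold at 3 h and 1.05-fold at 1 h. TIP2;2 (AT4G17340), PIP1;2 (AT2G45960) and PIP1;3 (AT1G01620) also opened, with differences of 2.29, 1.67 and 1.46. PIP1;1 (AT3G61430) and PIP1;4 (AT4G00430) differed by 1.52 and 1.2 but had gaps under 2-fold at both times.

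TIP2;3 (AT5G47450), another vacuolar channel, was the aquaporin whose gap reversed. It had 20.5 CPM after 3 h of dehydration and 5.62 CPM after 1 h, against 7.96 CPM after 3 h of ABA, 20.6 CPM after 1 h and 15.4 CPM untreated. At 3 h the dehydration column was the higher one and at 1 h the ABA column, and the difference was 3.24 (3.11 to 3.37). The 8 members that stayed under 2-fold, among them PIP2;7 at −0.03 and TIP1;2 at 0.00, had differences between −0.17 and 0.52. TIP4;1 was lower after dehydration at both times, with gaps of −1.19 at 3 h and −1.1 at 1 h. Since root and shoot were not separated, a shift in tissue makeup was looked at through markers. Root markers had 2 positive and 1 negative difference among 11 measured and a median of 0.51, and their part in these values was not tested.

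**Figure D3:**
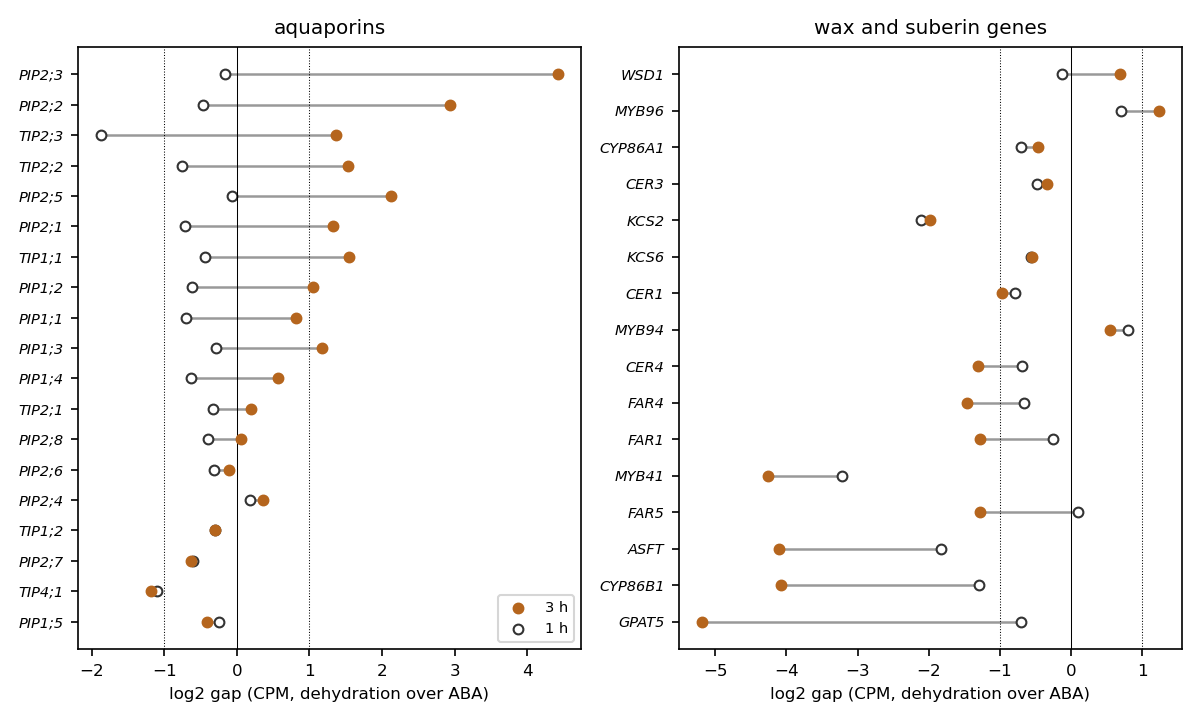
Gap between dehydration and ABA (log2 ratio of CPM) at 3 h (filled points) and at 1 h (open points) for the 19 measured aquaporins and the 16 measured wax and suberin genes, with a line joining the 2 times of a gene. The lines of 11 aquaporins run at least 2-fold towards dehydration, and those of 6 wax and suberin genes, GPAT5 the longest, at least 2-fold towards ABA.

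Of 15 measured CBF and DREB factors, which bind dehydration-responsive elements, 9 were at least 2-fold higher after dehydration at 3 h and 8 at 1 h, with 1 lower at each time. The difference was positive by 2-fold in 8 and negative in 1, beside 5.86% and 4.41% of all measured genes, with a median of 1.05. Ratios of FPKM + 1, which damp low values, gave 6 and 0. The median gap was 2.11 at 3 h and 1.07 at 1 h, and 6 of the 9 gaps had widened. DREB2A (AT5G05410), a drought-activated regulator, had 132 CPM after 3 h of dehydration and 34.6 CPM after 1 h, against 23.1 CPM after 3 h of ABA, 14.7 CPM after 1 h and 2.68 CPM untreated. Its difference of 1.28 (1.2 to 1.36) came mostly from the dehydration arm, which was 3.83-fold higher at 3 h than at 1 h, against 1.57-fold for ABA. CBF1 (AT4G25490) and CBF2 (AT4G25470), known from cold acclimation, had ABA columns that were lower at 3 h. For CBF1 a dehydration column that was higher at 3 h added to the difference. CBF1 had 16.3 CPM at 3 h and 11.4 CPM at 1 h of dehydration, 1.46 CPM at 3 h and 3.25 CPM at 1 h of ABA, and 0.0568 CPM in untreated seedlings. CBF2 had 21.9 CPM at 3 h and 25.4 CPM at 1 h of dehydration, 3.66 CPM at 3 h and 12.1 CPM at 1 h of ABA, and 1.31 CPM in untreated seedlings, with the 2 dehydration columns within 1.16-fold of each other.

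CBF3 (AT4G25480) opened by 1.11 (0.98 to 1.23), and CBF4 (AT5G51990), the member linked to drought, went a different way, with 3.15 CPM after 3 h of dehydration against 2.14 CPM after 3 h of ABA, and 0.696 CPM after 1 h of dehydration against 1.4 CPM after 1 h of ABA, with 0.0171 CPM untreated. ABA was thus ahead at 1 h for CBF4 and the gap had closed at 3 h. The AP2-domain gene AT1G22190 had 256 CPM after 3 h of dehydration and 124 CPM after 1 h, against 28.7 CPM after 3 h of ABA, 35.2 CPM after 1 h and 74.3 CPM untreated, and TINY (AT5G25810) widened by 1.05, under 2-fold on the log2(FPKM + 1) scale. DDF1 (AT1G12610) had 1 read after 3 h of ABA, so that its difference of 1.41 rests on the floor of 3 reads, and it was negative with a floor of 10 reads and on both FPKM scales. DREB19 (AT2G38340) was the member that moved towards ABA, at −1.54, and it also lay under 2-fold on the log2(FPKM + 1) scale.

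The largest difference of all eligible genes belonged to ERF53 (AT2G20880), an AP2/ERF factor linked to drought, which stood at 319.8 CPM after 3 h of dehydration and 44.3 CPM after 1 h, against 0.713 CPM after 3 h of ABA, 7.61 CPM after 1 h and 0.557 CPM untreated. The dehydration columns are both high and the 3 h one highest, while the ABA column is back near the untreated level at 3 h. ERF53 was 7.22-fold higher at 3 h than at 1 h of dehydration and 10.7-fold lower at 3 h than at 1 h of ABA, and its difference was 6.27 (6.01 to 6.53). AT4G28140, another AP2-domain gene, had 501 CPM after 3 h of dehydration against 1.61 CPM after 3 h of ABA, and 28.2 CPM after 1 h of dehydration against 1.99 CPM after 1 h of ABA, with 0.296 CPM untreated. Both ABA columns are low and close to each other, so the widening by 4.46 (4.23 to 4.69) came from dehydration. AT4G38410, annotated as a dehydrin family protein, had 27.6 CPM at 3 h and 1.32 CPM at 1 h of dehydration, 0.883 CPM at 3 h and 1.07 CPM at 1 h of ABA, and 0.875 CPM in untreated seedlings, and SIS (AT5G02020), annotated with salt tolerance, had 169 CPM at 3 h and 10.9 CPM at 1 h of dehydration, 11.1 CPM at 3 h and 12.5 CPM at 1 h of ABA, and 27.9 CPM in untreated seedlings. Both opened at 3 h in the dehydration column alone, with differences of 4.66 and 4.11.

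Of the galactinol synthases, which start the raffinose family of protective sugars, GOLS1, GOLS2 and GOLS3 had positive differences of 2-fold and GOLS4 stood at −0.75. GOLS3 (AT1G09350) had 77.7 CPM after 3 h of dehydration and 22.2 CPM after 1 h, against 1.01 CPM after 3 h of ABA, 5.70 CPM after 1 h and 0.210 CPM untreated. Its ABA columns are both above untreated but lower at 3 h, its dehydration columns higher at 3 h, and the difference was 4.31 (4.08 to 4.54). GOLS2 (AT1G56600) stood at 115 CPM after dehydration and 61.4 CPM after ABA at 3 h. At 1 h it had been behind, at 11.2 CPM after dehydration against 29.4 CPM after ABA, so that the gap closed by 2.3 (2.22 to 2.38). GOLS1 (AT2G47180) opened by 2.03 (1.93 to 2.13) and the raffinose synthase RS5 (AT5G40390) by 1.09 (1.06 to 1.13). P5CS1 (AT2G39800), the rate-limiting enzyme of proline synthesis, stayed under 2-fold at 0.72, with ABA ahead at both times. PRODH1 (AT3G30775), which breaks proline down, had 107 CPM after 3 h of dehydration against 56.5 CPM after 3 h of ABA, and 168 CPM after 1 h of dehydration against 39.5 CPM after 1 h of ABA, with 152 CPM untreated, and its dehydration lead at 1 h closed by −1.16 (−1.21 to −1.11). The combined list of 12 measured genes had 4 positive and 1 negative difference, beside 5.86% and 4.41% of all measured genes, and a median of −0.03.

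**Figure D4:**
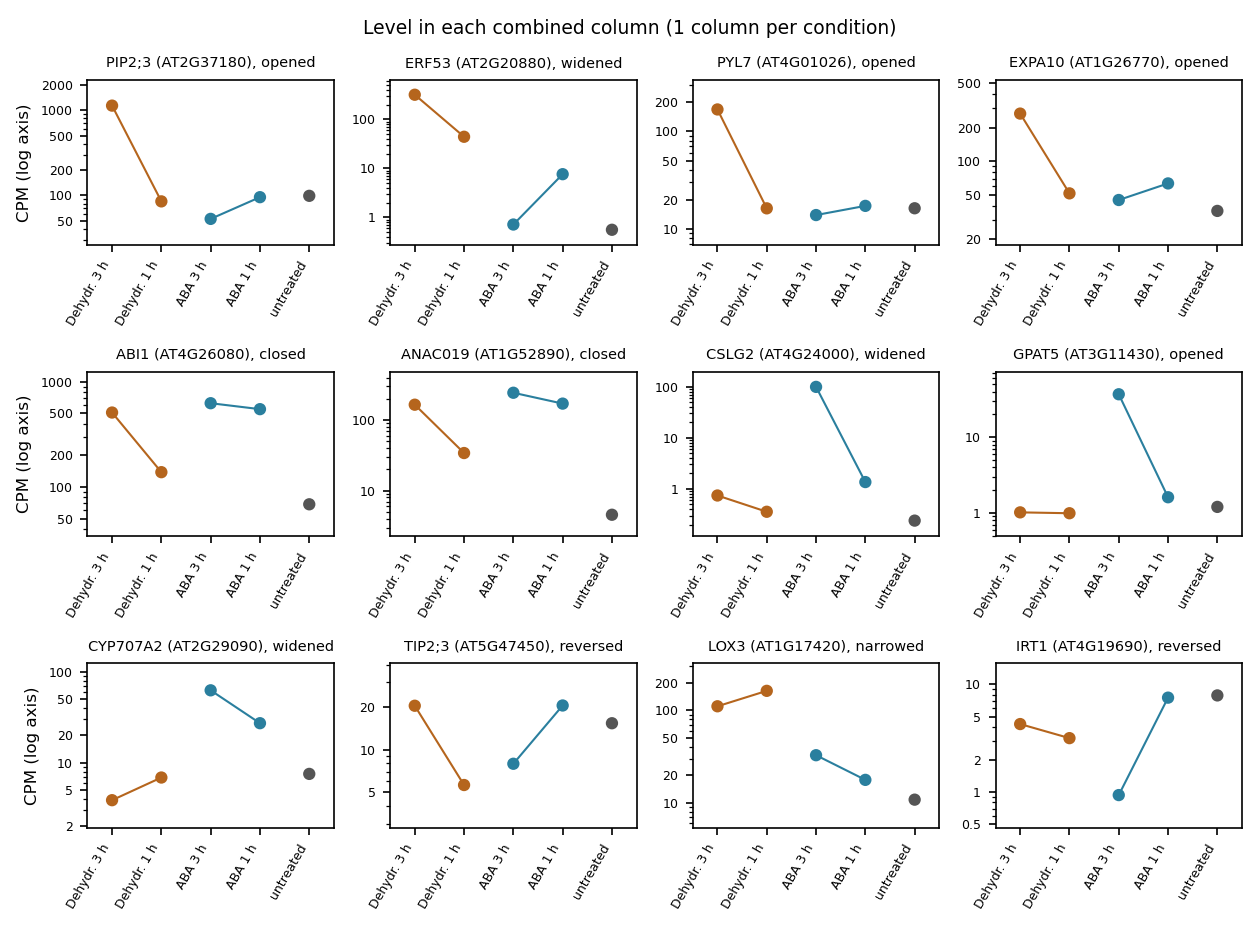
CPM (log axis) in each of the 5 columns for 12 genes, with dehydration at 3 h and 1 h, then ABA at 3 h and 1 h, then untreated, 1 panel per gene. PIP2;3 and PYL7 are high in the 3 h dehydration column alone, CSLG2 and GPAT5 in the 3 h ABA column alone, and ABI1 and ANAC019 are high in every treated column except 1 h of dehydration, where they are lower.

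Stress NAC factors, regulators of drought and senescence genes, had 5 positive differences and 0 negative ones among 10 measured, with a median of 0.83. The shares of all measured genes were 5.86% and 4.41%. ANAC019 (AT1G52890) had 165 CPM after 3 h of dehydration and 34.1 CPM after 1 h, against 243 CPM after 3 h of ABA, 171 CPM after 1 h and 4.55 CPM untreated. ABA was ahead 1.48-fold at 3 h and 5.01-fold at 1 h, and the difference was 1.76 (1.72 to 1.81). RD26 (AT4G27410), which is induced by desiccation and ABA, closed from the same side with 427 CPM after 3 h of dehydration against 294 CPM after 3 h of ABA, and 62.5 CPM after 1 h of dehydration against 138 CPM after 1 h of ABA, with 38.2 CPM untreated. Here both treatments were higher at 3 h, dehydration by 6.83-fold and ABA by 2.13-fold. ATAF1 (AT1G01720) stood at 503 CPM after dehydration against 79.2 CPM after ABA at 3 h. At 1 h it had 166 CPM after dehydration and 127 CPM after ABA, so that the gap opened by 2.28 (2.24 to 2.31). ANAC032 and ANAC055 differed by 1.53 and 1.07 with gaps under 2-fold at both times.

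In the core of ABA signalling, the phosphatases had a smaller median ABA lead at 3 h than at 1 h. Of 8 measured clade A PP2C phosphatases, the brakes of the pathway that ABA itself induces, 3 had a positive difference of 2-fold and 0 a negative one. The shares of all measured genes were 5.86% and 4.41%, and the list's median was 0.91. ABA was at least 2-fold ahead in 5 of the 8 at 3 h and in 7 at 1 h. ABI1 (AT4G26080) had 510.2 CPM after 3 h of dehydration and 139 CPM after 1 h, against 626 CPM after 3 h of ABA, 549 CPM after 1 h and 68.6 CPM untreated. The 1 h dehydration column is the low one among the treated, and the gap closed by 1.69 (1.67 to 1.72). PP2CA (AT3G11410), also shown above, had 333 CPM after 3 h of dehydration against 351 CPM after 3 h of ABA, and 95.1 CPM after 1 h of dehydration against 248 CPM after 1 h of ABA, with 21.4 CPM untreated, and closed by 1.31 (1.28 to 1.34). ABI2 (AT5G57050) narrowed by 1.1 (1.03 to 1.17), under 2-fold on the log2(FPKM + 1) scale, and kept an ABA lead of 2.99-fold at 3 h. HAI1 (AT5G59220) stayed under 2-fold at 0.84. HAI2 reached 0.99. HAI3 stood at 0.10, with gaps of −5.86 at 3 h and −5.96 at 1 h on the log2 scale, and its sign turns with FPKM, at −0.73 with 0.1 added and −1.87, past 2-fold, with 1 added.

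The ABF factors, which carry the signal to ABA-responsive elements, had 3 positive differences among 7 measured and a median of 0.52. Of all measured genes 5.86% were positive. ABF3 (AT4G34000) had 191 CPM after 3 h of dehydration and 74.7 CPM after 1 h, against 294 CPM after 3 h of ABA, 236 CPM after 1 h and 32.3 CPM untreated, and its gap closed by 1.03 (1.00 to 1.06). ABF2 (AT1G45249) had 113 CPM after 3 h of dehydration against 124 CPM after 3 h of ABA, and 35.6 CPM after 1 h of dehydration against 79.0 CPM after 1 h of ABA, with 18.8 CPM untreated, and its difference of 1.01 fell under 2-fold with RLE scaling and on the log2(FPKM + 1) scale. EEL (AT2G41070) opened towards dehydration by 1.15, but it shares same-strand sequence with another gene and lay under 2-fold on the log2(FPKM + 1) scale. MAPKKK18 (AT1G05100), a kinase of an ABA-activated cascade, had 34.1 CPM at 3 h and 3.39 CPM at 1 h of dehydration, 61.7 CPM at 3 h and 17.4 CPM at 1 h of ABA, and 0.279 CPM in untreated seedlings. Both treatments were higher at 3 h, and the ABA lead closed by 1.5 (1.37 to 1.63). None of the 10 SnRK2 kinases had a difference of 2-fold, with values between −0.85 for SNRK2.10 and 0.21 for SNRK2.8 and a median of −0.35.

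Among the ABA receptors 2 of 8 measured opened towards dehydration, beside 3.01% of all measured genes. PYL7 (AT4G01026) had 167 CPM after 3 h of dehydration and 16.3 CPM after 1 h, against 13.9 CPM after 3 h of ABA, 17.2 CPM after 1 h and 16.3 CPM untreated. The 3 h dehydration column alone departs from the others, and the difference was 3.67 (3.58 to 3.76). PYL9 (AT1G01360) had 39.4 CPM at 3 h and 9.74 CPM at 1 h of dehydration, 5.49 CPM at 3 h and 7.62 CPM at 1 h of ABA, and 6.73 CPM in untreated seedlings, with a difference of 2.49 (2.35 to 2.63). The receptors PYR1, PYL4, PYL5 and PYL6 were higher after dehydration at 3 h by 2-fold or more without a difference of 2-fold. PYL6 had gaps of 3.46 at 3 h and 3.66 at 1 h, and PYL4 gaps of 1.43 and 2.28 in the same order. Higher here means higher than after ABA. Summed over the measured receptors, the level was 699 CPM untreated. It was 346 CPM after 3 h and 190 CPM after 1 h of dehydration, and 111 CPM after 3 h and 135 CPM after 1 h of ABA. The sum was thus below untreated in every treated column. The list's median difference was 0.27, and with no filter on low values 4 members were positive.

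The CYP707A genes of ABA inactivation moved towards ABA where they moved 2-fold. CYP707A enzymes hydroxylate ABA, the main step of its breakdown. Their list of 6 measured genes also holds UGT71C5 and BGLU18, a glucosidase that releases ABA rather than inactivating it. In this list 3 genes, all CYP707A, had negative differences and 0 positive ones, beside 4.41% and 5.86% of all measured genes. The highest difference was 0.74, and 1 member was at least 2-fold higher after dehydration at 3 h. CYP707A2 (AT2G29090) had 3.87 CPM after 3 h of dehydration and 6.88 CPM after 1 h, against 62.9 CPM after 3 h of ABA, 27.3 CPM after 1 h and 7.54 CPM untreated. The ABA columns are high, the 3 h one most, and the dehydration columns lie at or below untreated, which widened the gap by −2.03 (−2.18 to −1.89). CYP707A1 (AT4G19230) had 28.1 CPM after 3 h of dehydration against 197 CPM after 3 h of ABA, and 24 CPM after 1 h of dehydration against 51.4 CPM after 1 h of ABA, with 3.80 CPM untreated, and widened by −1.72 (−1.79 to −1.65). CYP707A4 (AT3G19270) opened by −1.94 (−2.11 to −1.77), while CYP707A3 (AT5G45340) stayed under 2-fold at 0.72. On the side of synthesis 0 of 5 measured genes reached 2-fold. NCED3 (AT3G14440), the committed step, came nearest with 189.6 CPM after 3 h of dehydration and 49.4 CPM after 1 h, against 22.8 CPM after 3 h of ABA, 11.9 CPM after 1 h and 2.6 CPM untreated. Dehydration was ahead 8.30-fold at 3 h and 4.16-fold at 1 h, and the difference of 0.997 lay just under the limit, and over it with upper-quartile scaling and on both FPKM scales.

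Class I HD-Zip factors, among them regulators induced by water deficit, had 2 positive differences among 8 measured and a median of 0.75. Of all measured genes 5.86% were positive. HB12 (AT3G61890) had 152 CPM after 3 h of dehydration against 143 CPM after 3 h of ABA, and 34.3 CPM after 1 h of dehydration against 75.2 CPM after 1 h of ABA, with 11.5 CPM untreated, and its ABA lead closed by 1.22 (1.17 to 1.27). HB21 (AT2G18550) narrowed by 2.8, from 18 reads in its lowest column, and lay under 2-fold on the log2(FPKM + 1) scale.

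LEA proteins and dehydrins, which protect drying cells, split. Of 17 measured, 3 had positive and 1 negative differences, beside 5.86% and 4.41% of all measured genes, and the list's median was −0.04. LEA7 (AT1G52690) had 43.7 CPM after 3 h of dehydration and 0.811 CPM after 1 h, against 413 CPM after 3 h of ABA, 21.5 CPM after 1 h and 0.261 CPM untreated. Both treatments are far above untreated and higher at 3 h, dehydration by more, so that the ABA lead narrowed by 1.49 (1.25 to 1.72), under 2-fold on the log2(FPKM + 1) scale. LEA4-5 (AT5G06760) had 88.2 CPM after 3 h of dehydration against 429 CPM after 3 h of ABA, and 5.03 CPM after 1 h of dehydration against 66.0 CPM after 1 h of ABA, with 0.648 CPM untreated, and narrowed by 1.43 (1.33 to 1.53). EM6 (AT2G40170), a late embryogenesis gene, widened towards ABA by −1.5 (−2.45 to −0.54) on 11 reads in its lowest column. The ABA markers RD29B (AT5G52300) and RAB18 (AT5G66400) were ahead after ABA at both times, with differences under 2-fold at −0.92 and −0.35. RD29A (AT5G52310) has no usable count after 3 h of ABA, where its count is 0, and its FPKM values of 1994 at 3 h and 478 at 1 h of dehydration and 3960 at 3 h and 615 at 1 h of ABA give a difference of −0.63.

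Other drought genes mostly stayed under 2-fold, and 3 of 12 measured moved towards ABA, beside 4.41% of all measured genes. SAG29 (AT5G13170), a sugar transporter of senescing and seed tissue, had 13.6 CPM after 3 h of dehydration and 2.5 CPM after 1 h, against 682 CPM after 3 h of ABA, 9.89 CPM after 1 h and 5.84 CPM untreated. The 3 h ABA column stands far above the rest, and the gap widened by −3.67 (−3.82 to −3.51). ERD1 (AT5G51070), a chloroplast protease regulator, had 189 CPM after 3 h of dehydration against 386 CPM after 3 h of ABA, and 263 CPM after 1 h of dehydration against 196 CPM after 1 h of ABA, with 217 CPM untreated, and opened by −1.45 (−1.48 to −1.42). ERD7 (AT2G17840) closed from a dehydration lead at 1 h by −1.04, under 2-fold with upper-quartile scaling. RD20 (AT2G33380), a caleosin, was the positive one, with 666 CPM at 3 h and 77.1 CPM at 1 h of dehydration, 646 CPM at 3 h and 154 CPM at 1 h of ABA, and 6.99 CPM in untreated seedlings, and a difference of 1.04. The list's median was −0.36.

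Wax and suberin genes, which build the water barriers of the epidermis and root, moved towards ABA in 6 of 16 measured members and towards dehydration in 0. The shares of all measured genes were 4.41% and 5.86%. The list's median was −0.44, and with upper-quartile scaling 4 members moved towards ABA. GPAT5 (AT3G11430), an acyltransferase of suberin synthesis, had 1.02 CPM after 3 h of dehydration and 0.989 CPM after 1 h, against 37.0 CPM after 3 h of ABA, 1.61 CPM after 1 h and 1.2 CPM untreated. The 3 h ABA column alone stands high. No 2-fold gap was there at 1 h, and the difference was −4.49 (−4.83 to −4.14). ASFT (AT5G41040), which adds the aromatic part of suberin, had 12.0 CPM after 3 h of dehydration against 206 CPM after 3 h of ABA, and 9.45 CPM after 1 h of dehydration against 33.4 CPM after 1 h of ABA, with 10.5 CPM untreated. Its dehydration columns stay near untreated, and the gap widened by −2.28 (−2.38 to −2.18). CYP86B1 (AT5G23190), a hydroxylase of very long chain suberin acids, widened by −2.79 (−3.15 to −2.43), and the fatty alcohol reductase FAR5 (AT3G44550) opened by −1.38 (−1.58 to −1.17). MYB41 (AT4G28110), an activator of suberin genes, had 0.959 CPM at 3 h and 0.194 CPM at 1 h of dehydration, 18.4 CPM at 3 h and 1.8 CPM at 1 h of ABA, and 0.0227 CPM in untreated seedlings. Its gap of 19.2-fold at 3 h and 9.27-fold at 1 h differed by −1.05, and MYB41 and FAR1 (−1.01) fell under 2-fold with upper-quartile scaling, FAR1 also on the log2(FPKM + 1) scale. Wax genes of the shoot surface were not among the 6: CER1, CER3 and KCS6 differed by −0.19, 0.14 and 0.01. CER4 and WSD1 differed by −0.62 and 0.81, the latter the highest value of the list.

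**Figure D5:**
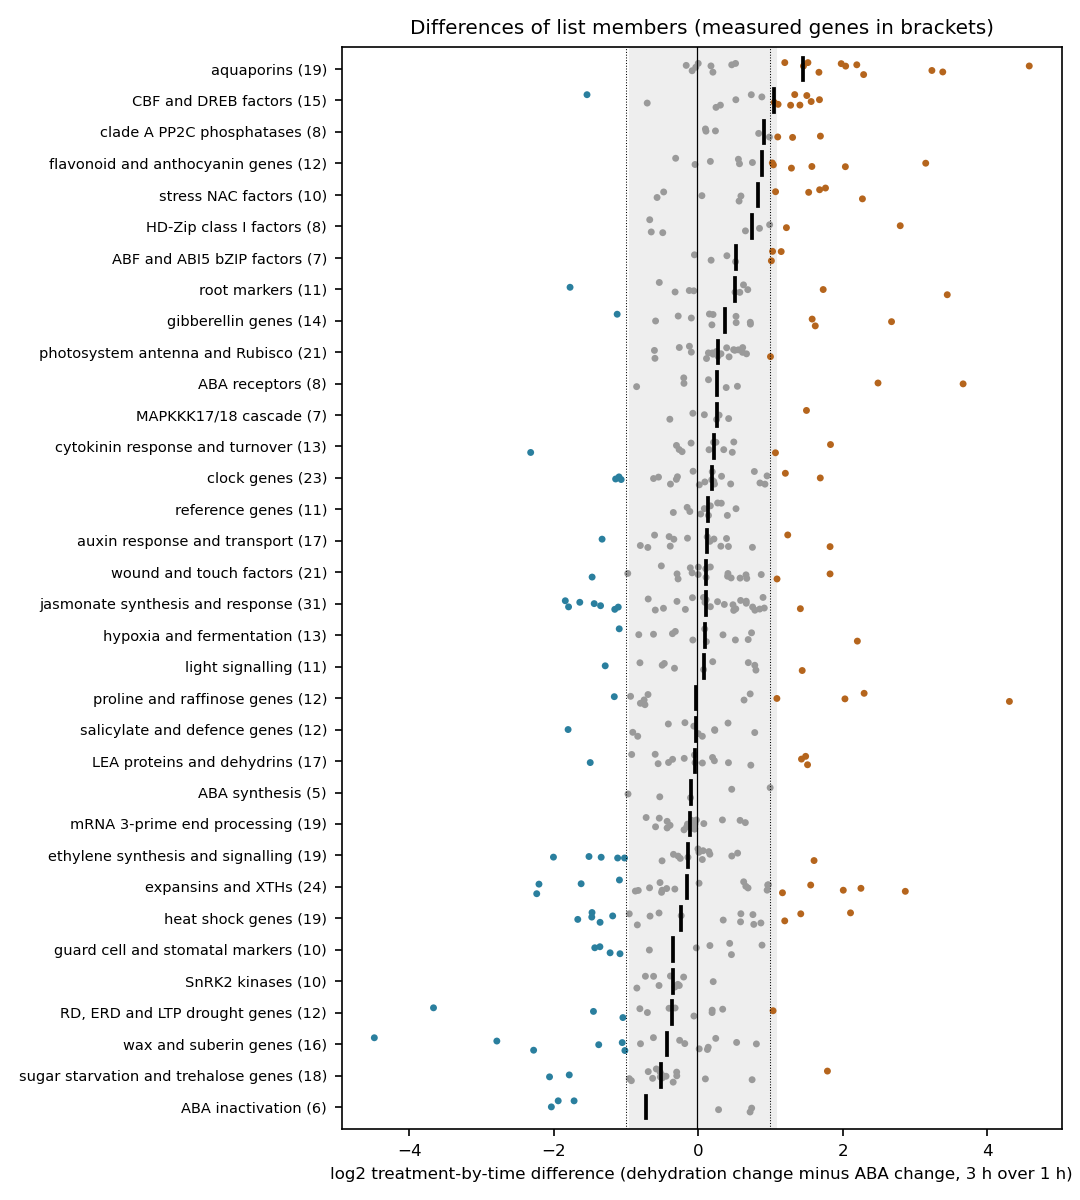
Difference between the times (log2 scale) for each measured member of each gene list, 1 row per list, with a bar at the list's median and a grey band for the central 90% of all measured genes. Aquaporins and CBF and DREB factors have medians of 1.46 and 1.05, and ABA inactivation, sugar starvation and wax and suberin genes have medians of −0.72, −0.51 and −0.44.

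The lowest differences of all eligible genes had the same profile, a high 3 h ABA column over low others. CSLG2 (AT4G24000), a cellulose synthase-like gene, had 0.741 CPM after 3 h of dehydration and 0.356 CPM after 1 h, against 98.9 CPM after 3 h of ABA, 1.36 CPM after 1 h and 0.239 CPM untreated, a gap of 134-fold at 3 h against 3.81-fold at 1 h and a difference of −5.13 (−5.59 to −4.67). The GDSL lipase family gene AT3G50400 had 0.623 CPM at 3 h and 0.738 CPM at 1 h of dehydration, 17.6 CPM at 3 h and 1.1 CPM at 1 h of ABA, and 0.591 CPM in untreated seedlings, with a difference of −4.25. PELPK2 (AT5G09520), a cell wall glycoprotein gene, followed at −4.14, and the TRAF-like gene AT3G13672 at −3.75. GPAT7 (AT5G06090), a relative of GPAT5, had 0.724 CPM after 3 h of dehydration against 22.7 CPM after 3 h of ABA, and 0.288 CPM after 1 h of dehydration against 0.691 CPM after 1 h of ABA, with 0.261 CPM untreated. None of these was more than 3.1-fold from untreated after 3 h of dehydration.

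Most genes of jasmonate, a hormone of wounding and defence, were ahead after dehydration at both times. Of 31 measured genes 21 were at least 2-fold higher after dehydration at 3 h and 21 at 1 h, with 1 and 0 lower, and the median gap was 1.58 at 3 h and 1.48 at 1 h. The difference was negative by 2-fold in 7 and positive in 1, beside 4.41% and 5.86% of all measured genes. Of these 8 gaps, 3 closed, 3 narrowed and 2 opened. The median difference over the list was 0.11. LOX3 (AT1G17420), a lipoxygenase at the start of synthesis, had 111 CPM after 3 h of dehydration and 163 CPM after 1 h, against 32.8 CPM after 3 h of ABA, 17.8 CPM after 1 h and 10.9 CPM untreated. Its dehydration columns are both high, the 1 h one higher, and its ABA column is higher at 3 h, so the lead narrowed by −1.44 (−1.51 to −1.37) without either arm reaching 2-fold. CYP94C1 (AT2G27690) and CYP94B3 (AT3G48520), which oxidise and so inactivate the active hormone, closed. CYP94C1 had 10.5 CPM after 3 h of dehydration against 5.97 CPM after 3 h of ABA, and 22.8 CPM after 1 h of dehydration against 3.61 CPM after 1 h of ABA, with 8.74 CPM untreated, and CYP94B3 had 46.6 CPM after 3 h of dehydration against 56.8 CPM after 3 h of ABA, and 39.0 CPM after 1 h of dehydration against 15.3 CPM after 1 h of ABA, with 2.17 CPM untreated. The repressors JAZ8 (AT1G30135), JAZ7 (AT2G34600) and JAZ4 (AT1G48500) had differences of −1.8, −1.11 and −1.35, those of JAZ4 and JAZ7 under 2-fold on the log2(FPKM + 1) scale. JAZ11 (AT3G43440) opened towards ABA by −1.16 (−1.27 to −1.04). JAR1 (AT2G46370), which joins jasmonate to isoleucine, was the positive one, with 244 CPM at 3 h and 112 CPM at 1 h of dehydration, 103 CPM at 3 h and 126 CPM at 1 h of ABA, and 62.8 CPM in untreated seedlings. The other synthesis genes kept their lead, with AOS at 2.09 at 3 h and 1.17 at 1 h and OPR3 at 2.26 and 2.15.

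Wound and touch factors were also at least 2-fold ahead after dehydration, 14 of 21 measured at 3 h and 13 at 1 h. Of all measured genes 9.21% and 5.34% were. The list had 2 positive and 1 negative difference, beside 5.86% and 4.41% of all measured genes. WRKY53 (AT4G23810), a regulator of senescence and defence, widened by 1.09 (0.99 to 1.19), and the zinc-finger repressor AZF1 (AT5G67450) opened by 1.83 (1.54 to 2.11). RRTF1 (AT4G34410) had 9.67 CPM at 3 h and 13.0 CPM at 1 h of dehydration, 0.620 CPM at 3 h and 0.300 CPM at 1 h of ABA, and 0.352 CPM in untreated seedlings. Its lead narrowed by −1.47 on the log2 scale, but on the log2(FPKM + 1) scale the difference lay under 2-fold.

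Ethylene genes had 5 negative differences and 1 positive one among 19 measured, beside 4.41% and 5.86% of all measured genes. ACS7 (AT4G26200), an enzyme making the ethylene precursor, had 5.03 CPM after 3 h of dehydration and 6.56 CPM after 1 h, against 32.2 CPM after 3 h of ABA, 10.5 CPM after 1 h and 15.8 CPM untreated, and its gap opened by −2.0 (−2.15 to −1.86). The receptor ETR2 (AT3G23150) had 9.06 CPM after 3 h of dehydration against 39.9 CPM after 3 h of ABA, and 18.8 CPM after 1 h of dehydration against 32.6 CPM after 1 h of ABA, with 52.5 CPM untreated, and opened by −1.34 (−1.44 to −1.25). EBF1 (AT2G25490), which targets the factor EIN3 for breakdown, had 114 CPM at 3 h and 306 CPM at 1 h of dehydration, 193 CPM at 3 h and 182 CPM at 1 h of ABA, and 145 CPM in untreated seedlings, and crossed by −1.51 (−1.54 to −1.48) with both gaps under 2-fold. EIN2 and CTR1, central signalling proteins, differed by −1.12 and −1.02, that of CTR1 under 2-fold with upper-quartile scaling. ACO1 (AT2G19590), which makes ethylene from the precursor, was the positive one at 1.61.

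Of the growth hormone genes, 2 of 13 measured were positive and 1 negative for cytokinin, 3 of 14 and 1 for gibberellin, and 2 of 17 and 1 for auxin, beside 10.3% of all measured genes in either direction. In CKX4, RGL2, IAA6 and IAA19 ABA alone changed 2-fold with time and was lower at 3 h. CKX4 (AT4G29740), which degrades cytokinin, had 37.7 CPM after 3 h of dehydration and 42.2 CPM after 1 h, against 1.84 CPM after 3 h of ABA, 7.33 CPM after 1 h and 9.29 CPM untreated, and its lead after dehydration widened by 1.83 (1.66 to 2.01). CKX5 (AT1G75450), of the same family, opened the other way by −2.32 (−2.57 to −2.07). GA20OX1 (AT4G25420), a step of gibberellin synthesis, had 3.66 CPM at 3 h and 1.77 CPM at 1 h of dehydration, 0.408 CPM at 3 h and 1.26 CPM at 1 h of ABA, and 0.608 CPM in untreated seedlings. The arms went opposite ways, and the gap opened by 2.68 (2.26 to 3.1). GA2OX1 (AT1G78440), which inactivates gibberellin, widened by 1.62 (0.78 to 2.47) from 19 reads in its lowest column. The DELLA repressors of gibberellin growth split, RGL2 at 1.58 and RGL1 at −1.12. The auxin-response genes IAA6 and IAA19 opened towards dehydration by 1.83 and 1.24, and GH3.3, an auxin-conjugating enzyme, closed from a dehydration lead by −1.33. IAA19 lay under 2-fold on the log2(FPKM + 1) scale.

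Cell wall loosening genes went both ways, with 5 positive and 4 negative differences among 24 expansins and XTHs (xyloglucan-modifying enzymes). The shares of all measured genes were 5.86% and 4.41%. EXPA10 (AT1G26770) had 268 CPM after 3 h of dehydration and 51.6 CPM after 1 h, against 45.0 CPM after 3 h of ABA, 63.4 CPM after 1 h and 35.9 CPM untreated. The 3 h dehydration column alone is high, and the difference was 2.87 (2.82 to 2.92). EXPA15 (AT2G03090) had 89.2 CPM after 3 h of dehydration against 6.5 CPM after 3 h of ABA, and 48.0 CPM after 1 h of dehydration against 16.7 CPM after 1 h of ABA, with 19.3 CPM untreated, and XTH20 (AT5G48070) and EXPA14 (AT5G56320) widened by 2.01 and 1.56. XTH24 (AT4G30270) had 135 CPM after 3 h of dehydration and 278 CPM after 1 h, against 593 CPM after 3 h of ABA, 266 CPM after 1 h and 414 CPM untreated. Its dehydration and ABA columns are 4.41-fold apart at 3 h and 1.05-fold apart at 1 h, with dehydration lower and ABA higher than at 1 h, a difference of −2.21 (−2.23 to −2.18). XTH15 (AT4G14130) opened by −2.24 (−2.34 to −2.14). With upper-quartile scaling 8 members were positive.

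Flavonoid genes, for pigments and flavonols that build up under stress and light, had 6 positive differences and 0 negative ones among 12 measured. The shares of all measured genes were 5.86% and 4.41%. The list's median was 0.89. MYB12 (AT2G47460), an activator of flavonol synthesis, had 6.64 CPM after 3 h of dehydration and 1.15 CPM after 1 h, against 0.811 CPM after 3 h of ABA, 1.25 CPM after 1 h and 0.921 CPM untreated, and opened by 3.15 (2.79 to 3.52). Its relative MYB111 (AT5G49330) widened by 2.04 (1.81 to 2.27). Of the enzymes, FLS1 (AT5G08640) had 46.7 CPM at 3 h and 10.2 CPM at 1 h of dehydration, 25.1 CPM at 3 h and 16.3 CPM at 1 h of ABA, and 8.36 CPM in untreated seedlings, and F3H (AT3G51240) had 105 CPM at 3 h and 27.8 CPM at 1 h of dehydration, 33.1 CPM at 3 h and 21.5 CPM at 1 h of ABA, and 9.15 CPM in untreated seedlings. FLS1 crossed by 1.57 (1.48 to 1.67) and F3H opened by 1.29 (1.22 to 1.37). CHS and CHI, the first steps, differed by 1.04 and 1.03, that of CHI under 2-fold on the log2(FPKM + 1) scale. DFR and the regulator PAP2, of the anthocyanin branch, differed by −0.04 and 0.17.

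Heat shock genes had 3 positive and 5 negative differences among 19 measured, beside 5.86% and 4.41% of all measured genes. On the log2(FPKM + 1) scale there were 2 and 3, with HSFB2B, HSP23.6 and BIP3 under 2-fold. The positive ones are the heat shock factors HSFA2 (AT2G26150), HSFA6B (AT3G22830) and HSFB2B (AT4G11660), the last at 1.2. HSFA6A had 0.77, and −0.85 on the log2(FPKM + 1) scale. HSFA2 had 6.08 CPM after 3 h of dehydration against 2.3 CPM after 3 h of ABA, and 0.712 CPM after 1 h of dehydration against 1.16 CPM after 1 h of ABA, with 4.29 CPM untreated, and opened by 2.11 (1.76 to 2.46), and HSFA6B had 67.6 CPM after 3 h of dehydration against 142 CPM after 3 h of ABA, and 15.4 CPM after 1 h of dehydration against 86.7 CPM after 1 h of ABA, with 0.188 CPM untreated, and narrowed from an ABA lead by 1.42 (1.36 to 1.49). The chaperone HSP70 (AT3G12580) had 31.6 CPM at 3 h and 33.0 CPM at 1 h of dehydration, 142 CPM at 3 h and 53.4 CPM at 1 h of ABA, and 275 CPM in untreated seedlings, all treated columns below untreated, and opened by −1.47 (−1.53 to −1.41) with ABA nearer to untreated at 3 h. The list median was −0.23. Dropping the filter gave −0.60, adding 1 to FPKM gave −0.49, and the members of 5 CPM or more on average gave 0.35, so the sign of the median depends on the filter.

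Clock genes had 2 positive and 3 negative differences among 23 measured, beside 5.86% and 4.41% of all measured genes. The morning genes CCA1 (AT2G46830) and PRR9 (AT2G46790) opened towards dehydration, with ABA columns lower at 3 h. CCA1 had 57.0 CPM after 3 h of dehydration and 89.1 CPM after 1 h, against 20.8 CPM after 3 h of ABA, 105 CPM after 1 h and 63.2 CPM untreated, with a difference of 1.69 (1.63 to 1.75). PRR9 had 39.9 CPM at 3 h and 75.8 CPM at 1 h of dehydration, 11.7 CPM at 3 h and 51.3 CPM at 1 h of ABA, and 11.8 CPM in untreated seedlings. LHY, the partner of CCA1, stayed under 2-fold at 0.78, and TOC1, an evening gene, at −0.62. PRR5 (AT5G24470) narrowed from a dehydration lead by −1.14 (−1.2 to −1.08), with 97.3 CPM after 3 h of dehydration against 44.0 CPM after 3 h of ABA, and 116 CPM after 1 h of dehydration against 23.7 CPM after 1 h of ABA, with 7.41 CPM untreated. The light-signalling factor HYH (AT3G17609) widened by 1.44 (1.33 to 1.55). Hours of treatment and time of day cannot be told apart within a treatment.

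Oxygen and sugar genes gave single large differences. The haemoglobin gene HB1 (AT2G16060) had 71.8 CPM after 3 h of dehydration and 69.8 CPM after 1 h, against 12.4 CPM after 3 h of ABA, 55.5 CPM after 1 h and 41.1 CPM untreated. The 3 h ABA column alone is low, and the gap opened by 2.2 (2.13 to 2.28). SUS1 (AT5G20830), a sucrose synthase, widened towards ABA by −1.09 (−1.14 to −1.04), and ADH1 (AT1G77120), alcohol dehydrogenase, stayed under 2-fold at −0.82. Among 18 sugar starvation and trehalose genes, ASN1 (AT3G47340), asparagine synthetase, had 105 CPM after 3 h of dehydration against 121 CPM after 3 h of ABA, and 272 CPM after 1 h of dehydration against 91.2 CPM after 1 h of ABA, with 100.5 CPM untreated, and closed by −1.79 (−1.82 to −1.75). KMD4 (AT3G59940), an F-box gene, had 237 CPM after 3 h of dehydration against 161 CPM after 3 h of ABA, and 32.6 CPM after 1 h of dehydration against 76.8 CPM after 1 h of ABA, with 293 CPM untreated, and closed from an ABA lead by 1.79 (1.74 to 1.84), and DIN2 (AT3G60140), a dark-inducible glucosidase, opened towards ABA by −2.06 (−2.23 to −1.89). PBS3 (AT5G13320), of salicylate synthesis, widened towards ABA by −1.8 (−1.99 to −1.61) and was the 1 of 12 salicylate and defence genes with a 2-fold difference. Photosystem antenna and Rubisco genes had 1 of 21 members at the limit, LHCB4.3 at 1.00, and 0 with total-count or RLE scaling. Of 19 factors of mRNA 3′-end processing 0 reached 2-fold. PCFS5 and PCFS1, relatives of a yeast cleavage factor, were ahead after dehydration at both times and differed by 0.65 and 0.58, and FPA, which promotes proximal polyadenylation, by 0.34.

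Markers of cell types were read in the same way. Of 10 measured guard cell and stomatal markers 4 were negative and 0 positive, beside 4.41% and 5.86% of all measured genes. All 4 are ion channels of guard cells. The list's median was −0.35, and −0.03 with no filter. The outward potassium channel GORK (AT5G37500) had 10.5 CPM after 3 h of dehydration against 33.4 CPM after 3 h of ABA, and 6.23 CPM after 1 h of dehydration against 7.33 CPM after 1 h of ABA, with 4.73 CPM untreated, and opened by −1.43 (−1.57 to −1.30). The inward channels KAT1 and KAT2 and the anion channel SLAC1 differed by −1.36, −1.22 and −1.08 with gaps under 2-fold at both times, and KAT2 and SLAC1 lay under 2-fold on the log2(FPKM + 1) scale. The lineage genes FAMA, SPCH and TMM differed by −0.03, 0.16 and 0.44, and the kinase gene HT1 by −0.68. MYB60 and EPF2 also lay under 2-fold, and the highest difference of the list was 0.88. Among root markers, WOX5 (AT3G11260), of the root stem cell niche, had 12.2 CPM after 3 h of dehydration and 1.28 CPM after 1 h, against 0.470 CPM after 3 h of ABA, 0.540 CPM after 1 h and 0.279 CPM untreated, and widened by 3.45 (2.99 to 3.91). CPC (AT2G46410), a root hair regulator, opened by 1.73 (1.41 to 2.05), and the nitrate transporter NRT2.1 closed by −1.77, under 2-fold on the log2(FPKM + 1) scale. SHR, SCR, GL2 and COBL9 differed by −0.06, −0.54, −0.12 and −0.32. The remaining measured root markers, RHD6, PHT1;1, EXPA7 and EXPA18, lay at or above the list's median of 0.51 but under 2-fold.

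Reversals were the rarest class, with 14 genes ahead after dehydration at 3 h but after ABA at 1 h (0.0743%) and 4 the other way round (0.0212%). TIP2;3 was given with the aquaporins, IRT1 and FRO2 are given with the iron genes at the end, and the others follow. UGT72E2 (AT5G66690), which attaches glucose to lignin precursors, had 14.0 CPM after 3 h of dehydration and 6.70 CPM after 1 h, against 4.38 CPM after 3 h of ABA, 23.7 CPM after 1 h and 26.5 CPM untreated. The arms moved opposite ways and the difference was 3.5 (3.35 to 3.64). The pectin lyase-like gene AT1G48100 had 213 CPM after 3 h of dehydration against 47.7 CPM after 3 h of ABA, and 27.9 CPM after 1 h of dehydration against 69.6 CPM after 1 h of ABA, with 4.59 CPM untreated. The 3 h dehydration column is the highest, and the difference was 3.48 (3.42 to 3.54). NF-YB2 (AT5G47640), a subunit of a CCAAT-binding factor, had 146 CPM at 3 h and 27.7 CPM at 1 h of dehydration, 49.5 CPM at 3 h and 60.7 CPM at 1 h of ABA, and 15.8 CPM in untreated seedlings, with a difference of 2.7 (2.64 to 2.75). CO (AT5G15840), a regulator of flowering time, reversed at low levels by 2.22 (1.87 to 2.57). EDA12, AT5G24155, AT4G33666, AT4G35720, AT4G19760, AT4G04745 and RXW8 reversed the same way, with differences between 2.31 for RXW8 and 3.54 for EDA12.

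In the other direction, BXL1 (AT5G49360), a cell wall xylosidase, had 77.1 CPM after 3 h of dehydration and 365 CPM after 1 h, against 207 CPM after 3 h of ABA, 148 CPM after 1 h and 806 CPM untreated. All treated columns lie below untreated. The lowest is dehydration at 3 h, and the difference was −2.73 (−2.76 to −2.69). AT2G30600, a BTB/POZ domain gene, had 56.9 CPM after 3 h of dehydration against 148 CPM after 3 h of ABA, and 153 CPM after 1 h of dehydration against 71.8 CPM after 1 h of ABA, with 234 CPM untreated, and a difference of −2.47 (−2.52 to −2.43). NRT1.8 (AT4G21680), a nitrate transporter that unloads the xylem, had 48.1 CPM at 3 h and 46.1 CPM at 1 h of dehydration, 98.6 CPM at 3 h and 18.8 CPM at 1 h of ABA, and 27.8 CPM in untreated seedlings. The 3 h ABA column is high, and the difference was −2.33 (−2.40 to −2.26). AT5G09670, a loricrin-related gene, had the largest negative value of the 4, −3.43, but its FPKM is listed as N/A and its value is uncertain.

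Other named members complete the smaller classes. CIB1 (AT4G34530), a light-regulated transcription factor, had 6.31 CPM after 3 h of dehydration against 27.2 CPM after 3 h of ABA, and 0.303 CPM after 1 h of dehydration against 36.5 CPM after 1 h of ABA, with 61.1 CPM untreated, the largest narrowing, at 4.81. Its FPKM is listed as N/A and it shares same-strand sequence with another gene, so the value is uncertain. AT5G24080, a protein kinase gene, had 36.1 CPM after 3 h of dehydration and 0.664 CPM after 1 h, against 25 CPM after 3 h of ABA, 5.22 CPM after 1 h and 0.0909 CPM untreated, and closed by 3.5 (3.23 to 3.78). AT3G03341, of no known function, had 30.7 CPM at 3 h and 0.528 CPM at 1 h of dehydration, 141 CPM at 3 h and 16.9 CPM at 1 h of ABA, and 0.0682 CPM in untreated seedlings, and narrowed from an ABA lead by 2.81 (2.52 to 3.1). HEC1 (AT5G67060), a bHLH factor, narrowed by 2.51 (2.28 to 2.75). The purine permease PUP18 (AT1G57990) and the transporter gene AT1G22570, whose stretches are printed above, closed from a dehydration lead. PUP18 had 47.3 CPM after 3 h of dehydration against 30.7 CPM after 3 h of ABA, and 86.2 CPM after 1 h of dehydration against 13.8 CPM after 1 h of ABA, with 80.0 CPM untreated, with a difference of −2.02 (−2.1 to −1.94), and AT1G22570 had 17 CPM after 3 h of dehydration against 16.2 CPM after 3 h of ABA, and 30.4 CPM after 1 h of dehydration against 5.50 CPM after 1 h of ABA, with 21.2 CPM untreated, with a difference of −2.40 (−2.52 to −2.27). In both, the ABA column at 1 h lies far below untreated. WRI4 (AT1G79700), an activator of wax synthesis, closed by −1.90 (−2.05 to −1.75). At the limit itself, AT5G23680 and AT3G47295 lay just inside the positive side at 1.00 each, and AT2G20940 just outside at 0.998.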

How the data were processed

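Per the labels' protocols, stranded libraries of polyadenylated RNA were sequenced as single reads, and the 3 samples of a condition were pooled. The build TAIR10 and the tools Cuffdiff, DESeq2, Cufflinks 2.1.1 and TopHat2 2.0.8 are named in the submitters' processing notes. What each tool did, how reads were counted and on which strand is not stated there. A table of unnormalized read counts per gene and a table of FPKM values per gene were deposited, each with 1 combined column per condition per the file headers. A count of 0 beside an FPKM above 1 occurred in 1 cell, RD29A after 3 h of ABA, and was treated as missing.

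CPM were computed from the counts with TMM factors over the 5 columns (edgeR 4.0.16 in R 4.3.3), with Python 3.11.15, NumPy 2.4.6, pandas 2.3.3, SciPy 1.17.1 and matplotlib 3.10.9 for the rest. Counts under 3 were set to 3. Of the rows, 3677 lay under a mean of 1 CPM over the 4 treated columns, and for 3 no difference could be formed. In 7 measured genes a count was set to the floor. Intervals of a difference are log-normal at 95% from the 4 counts, given where each is at least 10. Tests per gene need a value per replicate and were not run.

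The members and the 35 lists, with 531 genes, were chosen with earlier results of these data known. Of the names, 516 were found in the table or in RefSeq, 15 were kept by locus code, and 13 genes were not among the rows. Genes are named by rule: the 5 highest and 5 lowest differences among 13977 genes with 10 reads in each treated column and 10 CPM in the highest, the 3 largest per class and direction, up to 3 members per list, and a fixed set of markers. Further list members and the reversed genes are named to complete a count or a group, after their values were seen. Genes that overlap on the same strand (776 measured) and close paralogs are uncertain. Promoter windows were cut from the RefSeq genome TAIR10.1 by its own annotation, which held 22432 rows by locus code. The files give no coordinates.

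Counts with known differences were simulated from the 1 h ABA column with counting error only. Of genes drawn at a log2 difference of 2, 100% reached 2-fold, and of those drawn at 0.5 or at 0, 0% did. Of the intervals, 92% to 94.9% held the drawn value. The spread between samples was not simulated, so these shares are not rates of false or missed calls in the data. Other settings tried were total-count, RLE and upper-quartile scaling, other filters and floors, ratios of FPKM with 1 or 0.1 added, and a 4-fold limit.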

Additional observations from a re-analysis of the deposited data

Results flagged for a closer look

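In 10 of the named genes, with at least 10 reads in each treated column, both treatments differed at least 2-fold between 3 h and 1 h and in opposite directions. These differences were not tested, since each column pools its replicates. Among all 18846 measured genes, whatever their reads, 41 had this pattern, and 12 had it on the log2(FPKM + 1) scale. Many named genes were chosen for the size of their difference, so the 10 partly follow from that choice. On the log2 scale, dehydration higher and ABA lower at 3 h than at 1 h gave differences of 6.27 for ERF53, 4.311 for GOLS3, 3.997 for BHLH100, 3.498 for UGT72E2, 3.237 for TIP2;3, 2.678 for GA20OX1, 2.483 for FRO2 and 2.033 for GOLS1. With dehydration lower and ABA higher at 3 h than at 1 h, XTH24 had −2.205 and AT2G30600 had −2.474.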

How the results depend on the processing

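RLE, upper-quartile and total-count scaling, the filter over 5 columns, a floor of 10 reads and log2(FPKM + 0.1) kept every count of differences, gaps, classes and arms over all genes within 1.5 times. The share of positive differences lay between 54.1% and 63% over the settings, beside 57% here, and the median difference of all genes between −0.05 and 0.04. With no filter there were 1884 positive differences, 2733 genes higher after dehydration at 3 h and 1590 at 1 h, 1608 opened, 473 widened, 328 closed, 66 narrowed and 50 reversed gaps, and 849 genes with dehydration alone, 1132 with ABA alone and 100 with both arms opposite. At a mean CPM of at least 5 there were 692 positive differences, 1110 genes higher after dehydration at 3 h and 448 lower at 1 h, 670 opened, 146 widened, 120 closed and 11 reversed gaps, and 390 genes with ABA alone and 17 with both arms opposite. The log2(FPKM + 1) scale gave 731 positive differences, 449 genes lower after dehydration at 1 h, 130 widened, 113 closed, 15 narrowed and 10 reversed gaps, and 12 genes with both arms opposite and 51 with both the same. A log2 limit of 2 left 216 positive and 130 negative differences, 227 opened, 26 widened, 15 closed, 3 narrowed and 0 reversed gaps, 75 crossed within the limit, and 85 genes with dehydration alone, 116 with ABA alone, 1 with both opposite, 10 with both the same and 134 with neither. The filters and the limit change which genes can be counted, and adding 1 to FPKM shrinks the ratios of low genes. DDF1 had −0.5636 on the log2(FPKM + 1) scale, −0.05967 with 0.1 added and −0.3278 with a floor of 10 reads. Among the listed and named genes at 2-fold, RLE scaling took 2 under it, total-count scaling 1, upper-quartile scaling 4, log2(FPKM + 0.1) 3 and log2(FPKM + 1) 28.

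No paired analysis was possible because the deposited columns combine the replicates. Leaving out replicates, DESeq2 and limma on FPKM were not run for the same reason. Depth limits little here, since most named genes had over 100 reads per column, and the spread between replicates remains unknown.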

Other observations

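Genes of iron uptake and iron homeostasis are described as a group that was chosen after their values were seen, so their count and direction are no independent result. Of 14 measured genes, 10 had a positive difference of 2-fold and 0 a negative one, with a median of 1.49, and the median gap was 0.44 at 3 h and −0.80 at 1 h. IRT1 (AT4G19690), the main iron transporter of the root surface, had 4.27 CPM after 3 h of dehydration and 3.16 CPM after 1 h, against 0.935 CPM after 3 h of ABA, 7.51 CPM after 1 h and 7.88 CPM untreated, and its gap reversed with a difference of 3.44 (3.17 to 3.71). FRO2 (AT1G01580), the reductase that makes iron available to it, had 4.24 CPM after 3 h of dehydration against 1.86 CPM after 3 h of ABA, and 1.99 CPM after 1 h of dehydration against 4.88 CPM after 1 h of ABA, with 3.62 CPM untreated, and reversed by 2.48 (2.23 to 2.74). In both genes the 3 h ABA column is the lowest of the 5. NAS4 (AT1G56430), which makes the metal chelator nicotianamine, opened by 2.03 (1.92 to 2.14).

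The iron-deficiency regulators of the bHLH family were lower after dehydration at 1 h. BHLH100 (AT2G41240) had 1.16 CPM at 3 h and 0.215 CPM at 1 h of dehydration, 0.982 CPM at 3 h and 2.89 CPM at 1 h of ABA, and 5.53 CPM in untreated seedlings, and bHLH38 (AT3G56970) had 1.14 CPM at 3 h and 0.602 CPM at 1 h of dehydration, 1.63 CPM at 3 h and 4.76 CPM at 1 h of ABA, and 3.83 CPM in untreated seedlings. Both gaps closed, by 4.0 (3.46 to 4.54) and 2.47 (2.1 to 2.85). PYE (AT3G47640), a repressor among the same regulators, closed by 1.5 (1.39 to 1.62), and the transporter OPT3 (AT4G16370) crossed by 1.23 (1.2 to 1.25). Dehydrated seedlings were out of the medium that holds the iron, and the part of this in the values was not tested.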
